A study of Mus musculus with 26 samples.

Results

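The question was whether β-hydroxy-β-methylbutyrate (HMB) had a different effect on tumor gene expression in mice that received anti-PD1 than in mice that did not. The quantity that answers it is a difference of differences, called the interaction here: the HMB effect under anti-PD1 (anti-PD1 + HMB minus anti-PD1) minus the HMB effect without it (HMB minus control). A positive interaction means that HMB-fed tumors stood relatively higher under anti-PD1 than without it, and a negative one the opposite. All 26 tumors of the series enter it, and it was computed for 19505 genes with a symbol out of 28846 probe sets. A gene was called a turning gene where the HMB effect had opposite signs in both arms, each with an unadjusted p under 0.05. There were 44 turning genes, which is 0.226% of the genes tested.

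The tumors came from Panc02 cells, a mouse pancreatic ductal adenocarcinoma line, grown under the skin of the right flank of male C57BL/6 mice that were 6 to 8 weeks old when bought. All mice ate the purified AIN-93G diet and were injected with 200000 cells by the sample labels. The anti-PD1 + HMB group (7 tumors) had 1% HMB in the diet from 1 week before the injection and 200 µg of the antibody into the peritoneum every 3 days, the anti-PD1 group (6 tumors) had the antibody on the diet without HMB, the HMB group (7 tumors) had the HMB diet without anti-PD1, and the control group (6 tumors) had neither. By the study's methods, mice without anti-PD1 received an isotype control antibody. These group sizes follow the sample labels, whereas the series' own design text lists different ones. Panc02 is a single cell line and the tumors were not in the pancreas.

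HMB is a breakdown product of the amino acid leucine that is used as a dietary supplement to preserve muscle. PD-1 is an inhibitory receptor on T cells, and an antibody against it releases T cells from that brake. Activated T cells secrete interferon-gamma, whose receptor signals through JAK kinases and STAT factors to GAS elements in promoters, and the interferon regulatory factors induced next act at ISRE elements. Tumor cells respond with more antigen presentation and with the PD-1 ligand. Carcinoma cells also differ in how epithelial they are: keratins, the adhesion molecule Epcam and the splicing regulators Esrp1 and Esrp2 mark the epithelial state, whereas transcription factors such as Zeb1 and Snai1 repress such genes through E-boxes in their promoters.

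Each tumor was profiled on 1 Clariom S array from RNA of the entire tissue, so that the values mix every cell type in the tissue, and fewer cells of a type cannot be told apart from less RNA per cell. Levels are log2 values as deposited, and a difference of 1 is a 2-fold change if the unstated log base is 2. The median of an array was between 6.97 and 7.11. Probe sets that serve as negative controls gave a background level of 11.06 (the median over arrays of their 95th percentile), and 4168 genes had a mean level above it. The labels give 1 tumor per array. The keratins Krt8 and Krt18 were well above background with mean levels of 14.81 and 14.77, while Epcam averaged 5.70. The tumor label was also checked against 32 cell cycle genes, of which 24 were above background. Some tumors stood apart in tissue content. Anti-PD1 + HMB tumor 7 had the highest scores for B cell (6.68) and adipocyte genes (5.47), and HMB tumor 5 and anti-PD1 + HMB tumor 4 had the highest for skeletal muscle genes (5.24 and 4.71). A score is the mean of a list's members in a tumor, each gene centred on its mean over all tumors.

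No gene had an interaction that passed after Benjamini-Hochberg adjustment in limma (0 of 19505, or 0%, smallest adjusted p = 0.316). At an unadjusted p under 0.05 there were 509 genes with a positive interaction (2.61%) and 577 with a negative one (2.96%). When each array was centred on its own median, the split became 986 positive and 293 negative, because the median interaction of all genes moved from 0.01 to 0.11. Neither arm gave a call by itself. HMB under anti-PD1 had 0 calls (at that unadjusted p, 361 genes were higher and 454 lower, smallest adjusted p = 0.999), and HMB without anti-PD1 had 0 calls (612 higher and 740 lower, smallest adjusted p = 0.333). Every value below is therefore a description of these tumors, and "higher" and "lower" refer to the means.

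The HMB effects in the 2 arms share no tumor. Across all genes their Pearson correlation was 0.09 and their Spearman correlation -0.01, and 49.8% of genes had effects of opposite sign. Of the 44 turning genes, 31 were higher with HMB alone and lower with HMB under anti-PD1, and 13 were the reverse. Only 7 of them had a mean above background. At the edge of the rule, Esr1 and Gm5592 were just inside it, with interactions of 1.14 and -0.93, and Gipc2 and Wfdc18 just outside, with -2.25 and -0.94.

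**Figure D1:**
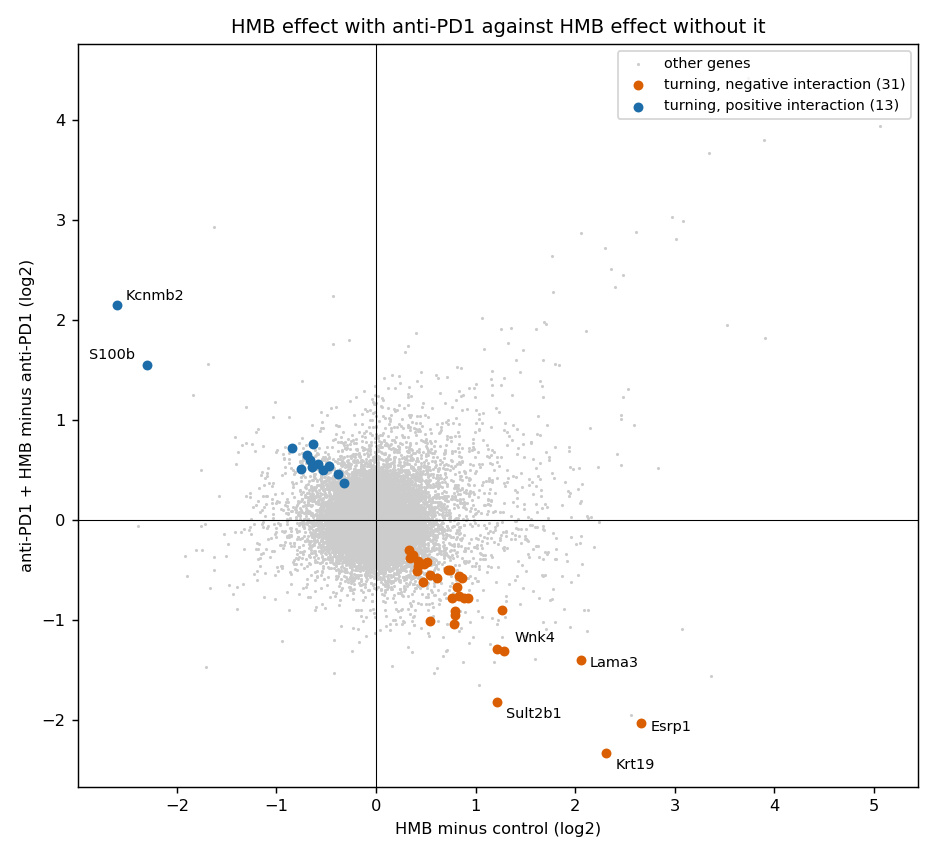
Each point is 1 of 19505 genes, with the HMB effect without anti-PD1 on the x axis and the HMB effect under anti-PD1 on the y axis, both as log2 differences of group means. Colored points are the 44 turning genes, 31 in the lower right with Esrp1 and Krt19 farthest out and 13 in the upper left with Kcnmb2 and S100b farthest out. Genes at the far upper right were higher with HMB in both arms.

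Epithelial genes were prominent among the large negative interactions. Esrp1, an RNA-binding protein that sets epithelial splicing patterns, ranged from 3.36 to 7.87 (median 5.82) in anti-PD1 + HMB tumors, from 6.84 to 9.26 (median 7.87) in anti-PD1 tumors, from 5.94 to 9.82 (median 7.79) in HMB tumors and from 3.55 to 7.62 (median 5.38) in control tumors. It was higher where mice received either HMB or anti-PD1 and lower where they received both or neither, with all group means below background. All 7 HMB tumors lay above the control mean and 0 of 7 anti-PD1 + HMB tumors lay above the anti-PD1 mean, although the groups of each arm overlapped. Its interaction was -4.69 (SE 1.08, adjusted p = 0.515 in limma), from an HMB difference of -2.03 (SE 0.76) under anti-PD1 and of 2.67 (SE 0.76) without it.

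Krt19, a keratin of ductal epithelium, repeated this pattern. It ranged from 4.98 to 7.70 (median 6.28) in anti-PD1 + HMB tumors, from 5.95 to 9.68 (median 9.08) in anti-PD1 tumors, from 6.73 to 11.93 (median 7.97) in HMB tumors and from 4.19 to 8.81 (median 5.87) in control tumors. As with Esrp1, every HMB tumor was above the control mean and no anti-PD1 + HMB tumor was above the anti-PD1 mean. The group means of Krt19 were below background as well. The interaction was -4.64 (SE 1.11, adjusted p = 0.515). Esrp2, the paralog of Esrp1, had a smaller interaction of -1.48 (SE 0.45), with group means of 7.11 in anti-PD1 + HMB, 7.78 in anti-PD1, 8.09 in HMB and 7.27 in control tumors.

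Other turning genes of the negative side had similar profiles and mostly low levels. Sult2b1, a sulfotransferase for cholesterol and other sterols, had an interaction of -3.02 (SE 0.72), with medians of 5.77 in anti-PD1 + HMB, 7.68 in anti-PD1, 6.42 in HMB and 5.59 in control tumors. Wnk4, a kinase that regulates salt transport in epithelia, had one of -2.58 (SE 0.61), with medians of 5.78, 7.14, 7.03 and 5.98 in the same order of groups. Mpzl2, an adhesion protein of epithelia, was not a turning gene by the rule but had an interaction of -2.77 (SE 0.64). The means of these 3 genes lay below the background level in every group. Lama3, a laminin chain of epithelial basement membranes, had an interaction of -3.45 (SE 0.90), with medians of 6.22 in anti-PD1 + HMB, 7.57 in anti-PD1, 7.86 in HMB and 6.24 in control tumors. The kinase Ripk4 (-1.70) and the lipoprotein receptor Lsr of tricellular junctions (-1.60), both found in epithelia, turned as well. Over the 31 genes the interaction ran from -4.69 for Esrp1 to -0.63 for Srp19, a subunit of the signal recognition particle.

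Cblc, an epithelial member of the Cbl family of ubiquitin ligases, had the smallest p of the negative side. Its group means, from 4.02 to 5.28, lay far below background. It ranged from 3.68 to 4.99 (median 4.53) in anti-PD1 + HMB tumors, from 4.56 to 5.89 (median 5.16) in anti-PD1 tumors, from 3.97 to 6.10 (median 5.30) in HMB tumors and from 3.59 to 4.83 (median 3.90) in control tumors. Its interaction was -2.16 (SE 0.43, adjusted p = 0.316). It was the only gene that passed when a tumor was left out, at -2.37 (adjusted p = 0.0352) without HMB tumor 3, the HMB tumor that lay lowest. In Slc4a3, an anion exchanger, the groups did not overlap under anti-PD1, with 3.77 to 5.79 (median 5.06) in anti-PD1 + HMB tumors against 5.88 to 6.29 (median 6.06) in anti-PD1 tumors. In the other arm it ranged from 5.58 to 6.83 in HMB tumors and from 5.47 to 6.42 in control tumors, and its interaction was -1.55 (SE 0.35). Its mean level of 5.78 was below background too.

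**Figure D2:**
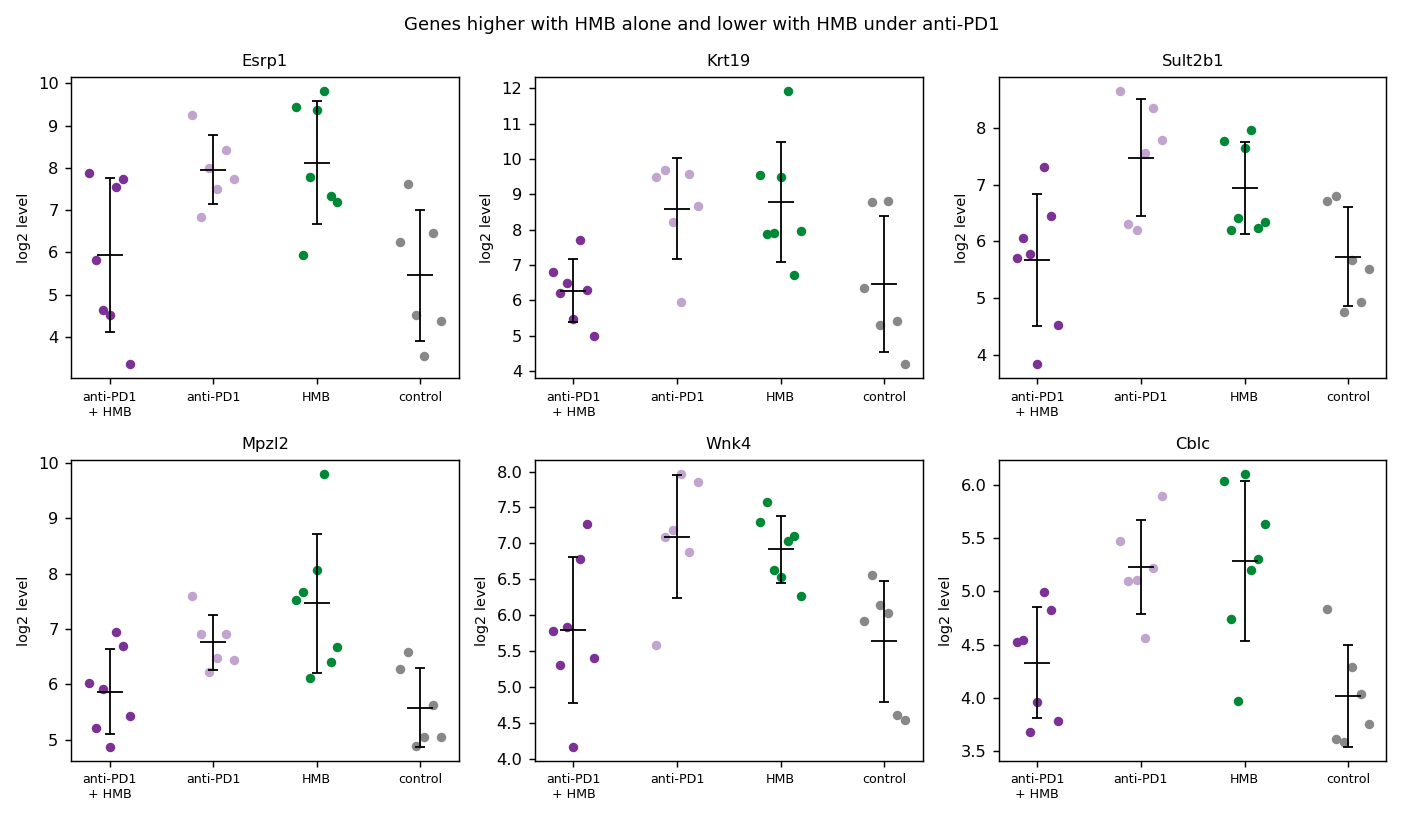
Log2 level of 6 genes in each tumor (points), with the group mean and SD (bars). In Esrp1, Krt19, Sult2b1, Mpzl2, Wnk4 and Cblc the means of anti-PD1 and HMB tumors stand above those of anti-PD1 + HMB and control tumors, with overlap between groups.

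A list of 15 epithelial markers, all of them measured, had a median interaction of -1.0, against 0.01 over all genes. The list was written with earlier results of these data known and holds genes described above, so its counts are not independent evidence. Of its members 12 were negative, against 9607 of all 19505 genes. Of these 7 had an unadjusted p under 0.05 (2.96% of all genes were negative at that p), and 0 of the positive ones did. Without single tumors 6 to 8 members did. Besides Esrp1, Krt19 and Esrp2, these were Krt7 at -4.16, Epcam at -2.80, the tight junction protein Ocln at -2.43 and Krt8 at -1.0. Krt8 was the one of the 7 above background. It ranged from 13.01 to 15.04 (median 14.87) in anti-PD1 + HMB tumors, from 14.77 to 15.54 (median 15.12) in anti-PD1 tumors, from 14.30 to 15.99 (median 14.95) in HMB tumors and from 14.35 to 14.96 (median 14.53) in control tumors, so that the groups overlapped widely. Cdh1, the epithelial cadherin, did not share the pattern, with an interaction of 0.13 (SE 1.05), and neither did Grhl2 (0.10) or Cldn3 (0.06).

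The epithelial score, a mean over the same members, had the same direction in each arm, with overlap between the groups. It ranged from -1.74 to 0.27 (median -0.34) in anti-PD1 + HMB tumors, from -0.21 to 0.98 (median 0.35) in anti-PD1 tumors, from -0.66 to 1.90 (median -0.08) in HMB tumors and from -0.68 to 0.15 (median -0.47) in control tumors. Of 7 anti-PD1 + HMB tumors 0 were above the anti-PD1 mean, and 6 of 7 HMB tumors were above the control mean. The 17 measured keratinocyte genes, markers of skin, moved with the epithelial list. Their median interaction was -0.87, 14 of 17 were negative and 4 of these had an unadjusted p under 0.05 (Sbsn, Krt14, Krt17 and Krt15), against 2.96% of all genes. Without anti-PD1 tumor 6, which had the highest keratinocyte score (1.83), the median was -0.48. The keratinocyte score ranged from -0.64 to -0.08 in anti-PD1 + HMB tumors, from -0.33 to 1.83 in anti-PD1 tumors, from -0.48 to 0.83 in HMB tumors and from -0.52 to 0.06 in control tumors. Krt5 and Krt1, defining markers of basal and suprabasal keratinocytes, averaged 2.70 and 3.70, near the bottom of the scale, whereas Krt14 averaged 8.72. With the keratinocyte score as a covariate, which was added after seeing the data, the median of the epithelial list was -0.73, with 3 members at an unadjusted p under 0.05. Esrp1 was then at -3.80, Krt19 at -3.95 and Cblc at -1.62.

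Promoters of the epithelial list are shown because the repressors of the epithelial state bind E-boxes. The RefSeq promoter windows (GRCm38.p6, 250 bases before to 50 bases after the gene start) held 10 of the 15 genes. The letters CACCTG, or CAGGTG on the other strand, occurred in the window of 10 of these 10 genes, against 22.6% of the 27025 genes of the table. This motif was chosen after the values of the list had been seen, and a match is a description of the letters, not of a bound site. The 3 members with the smallest interaction p that had a match follow, with the E-box in capitals, at Krt7 chr15:101412153-101412452 on the plus strand, Krt8 chr15:102004293-102004592 on the minus strand and Ocln chr13:100552669-100552968 on the minus strand.
Krt7: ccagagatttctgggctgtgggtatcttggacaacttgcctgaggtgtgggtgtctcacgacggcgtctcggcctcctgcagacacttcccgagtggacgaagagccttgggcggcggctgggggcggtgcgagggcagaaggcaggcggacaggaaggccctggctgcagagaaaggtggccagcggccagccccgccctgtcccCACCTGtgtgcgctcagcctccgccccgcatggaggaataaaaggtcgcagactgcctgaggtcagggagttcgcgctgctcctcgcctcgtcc
Krt8: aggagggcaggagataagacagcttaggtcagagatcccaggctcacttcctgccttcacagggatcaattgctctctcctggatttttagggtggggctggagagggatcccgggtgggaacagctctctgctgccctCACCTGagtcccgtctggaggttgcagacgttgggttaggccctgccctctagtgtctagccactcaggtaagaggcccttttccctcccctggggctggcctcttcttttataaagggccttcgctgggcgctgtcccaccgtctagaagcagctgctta
Ocln: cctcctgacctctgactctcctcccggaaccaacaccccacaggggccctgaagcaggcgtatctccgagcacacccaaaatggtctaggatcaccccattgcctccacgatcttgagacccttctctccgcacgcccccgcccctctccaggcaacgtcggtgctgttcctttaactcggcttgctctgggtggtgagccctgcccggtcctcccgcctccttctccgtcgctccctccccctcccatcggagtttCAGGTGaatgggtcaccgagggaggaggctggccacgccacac

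Regulators of the epithelial state were looked at after these values were known. Zeb1, a repressor of epithelial genes, was above background and had the opposite profile to the keratins. It ranged from 11.74 to 12.69 (median 12.47) in anti-PD1 + HMB tumors, from 11.49 to 12.27 (median 11.69) in anti-PD1 tumors, from 11.64 to 12.64 (median 12.17) in HMB tumors and from 11.76 to 13.23 (median 12.48) in control tumors. The groups overlapped in both arms, and the interaction was 0.89 (SE 0.30, adjusted p = 0.862 in limma). Snai1, another repressor, had the same sign as the epithelial genes at -1.85 (SE 0.76), and Snai2 (-0.99), Twist1 (-0.98) and Twist2 (-0.70) did too, all below background. Vim, the mesenchymal intermediate filament, had group means of 17.18 in anti-PD1 + HMB, 17.30 in anti-PD1, 17.23 in HMB and 17.14 in control tumors and an interaction of -0.20 (SE 0.18).

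Among genes above background, the negative side held Sema3c, a secreted guidance factor, with 12.05 to 14.39 (median 14.13) in anti-PD1 + HMB tumors, 14.14 to 15.37 (median 14.57) in anti-PD1 tumors, 14.27 to 15.13 (median 14.45) in HMB tumors and 13.28 to 14.71 (median 13.96) in control tumors. Its interaction was -1.63 (SE 0.45, adjusted p = 0.771), and every tumor of the 2 HMB-fed groups lay on the side of its group's difference. Gcnt2, a glycosyltransferase that branches polylactosamine chains, was at -1.44 (SE 0.37), with medians of 11.65 in anti-PD1 + HMB, 12.00 in anti-PD1, 12.16 in HMB and 11.30 in control tumors. Igsf8, a membrane protein that associates with tetraspanins, was at -1.09 (SE 0.28), with medians of 11.08, 11.73, 11.60 and 11.15 in the same order of groups. Each of these was high with either treatment alone. The others of the rule were the lysosomal membrane protein Gpr137b (-1.22), the AP-1 factor Fosl2 (-1.06), the sialoglycoprotein Cd24a (-1.12), the calcium-dependent membrane-binding protein Anxa2 (-0.83) and the heme-binding protein Pgrmc2 (-0.67).

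The positive side of the turning genes was led by 2 genes with low levels. Kcnmb2, a regulatory subunit of calcium-activated potassium channels, ranged from 4.12 to 10.07 (median 6.55) in anti-PD1 + HMB tumors, from 3.69 to 6.70 (median 4.17) in anti-PD1 tumors, from 3.50 to 6.47 (median 4.72) in HMB tumors and from 5.43 to 9.11 (median 8.04) in control tumors. All 7 HMB tumors lay below the control mean and 6 of 7 anti-PD1 + HMB tumors lay above the anti-PD1 mean. The interaction was 4.75 (SE 1.08, adjusted p = 0.515). S100b, a calcium-binding protein known from glia, Schwann cells and some dendritic cells, was at 3.85 (SE 1.0), with medians of 6.93 in anti-PD1 + HMB, 4.71 in anti-PD1, 4.45 in HMB and 7.46 in control tumors. The other Schwann cell genes did not share this, since the 11 measured members of the neural list had a median interaction of 0.21 and Sox10 was at 0.03. Fancd2os had the smallest p of all genes (interaction 1.27, SE 0.25, adjusted p = 0.316) but group means between 3.45 and 4.20, far below background, as had Tas2r138 (1.17), Rpe65 (1.01) and Npy5r (1.57).

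Turning genes above background with a positive interaction were Insr, Nhsl1 and Ncf1. Insr, the insulin receptor, ranged from 12.79 to 14.26 (median 13.70) in anti-PD1 + HMB tumors, from 12.55 to 13.98 (median 13.15) in anti-PD1 tumors, from 12.87 to 13.78 (median 13.50) in HMB tumors and from 13.49 to 14.26 (median 13.86) in control tumors. All 7 HMB tumors were below the control mean, and the interaction was 1.04 (SE 0.32, adjusted p = 0.862). Ncf1, a subunit of the phagocyte NADPH oxidase, ranged from 12.55 to 13.80 (median 13.05) in anti-PD1 + HMB tumors, from 11.88 to 12.85 (median 12.42) in anti-PD1 tumors, from 10.75 to 13.27 (median 12.53) in HMB tumors and from 12.07 to 13.34 (median 12.93) in control tumors. All 7 anti-PD1 + HMB tumors exceeded the anti-PD1 mean, and the interaction was 1.35 (SE 0.44). Nhsl1, a regulator of cell migration, was at 1.40 (SE 0.42), and Esr1, the estrogen receptor alpha, turned as well at 1.14 (SE 0.38) below background. Of genes named for a small p above background without turning, Sting1, the adaptor of cytosolic DNA sensing, had medians of 12.97 in anti-PD1 + HMB, 12.58 in anti-PD1, 12.46 in HMB and 13.01 in control tumors and an interaction of 0.87 (SE 0.28). The caveolar protein Cavin2 was at 1.53 (SE 0.50), the chemerin receptor Cmklr1 at 1.1 (SE 0.36), the lipid transfer protein Stard5 at 1.54 (SE 0.47) and Tmem50b at 0.94 (SE 0.28).

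**Figure D3:**
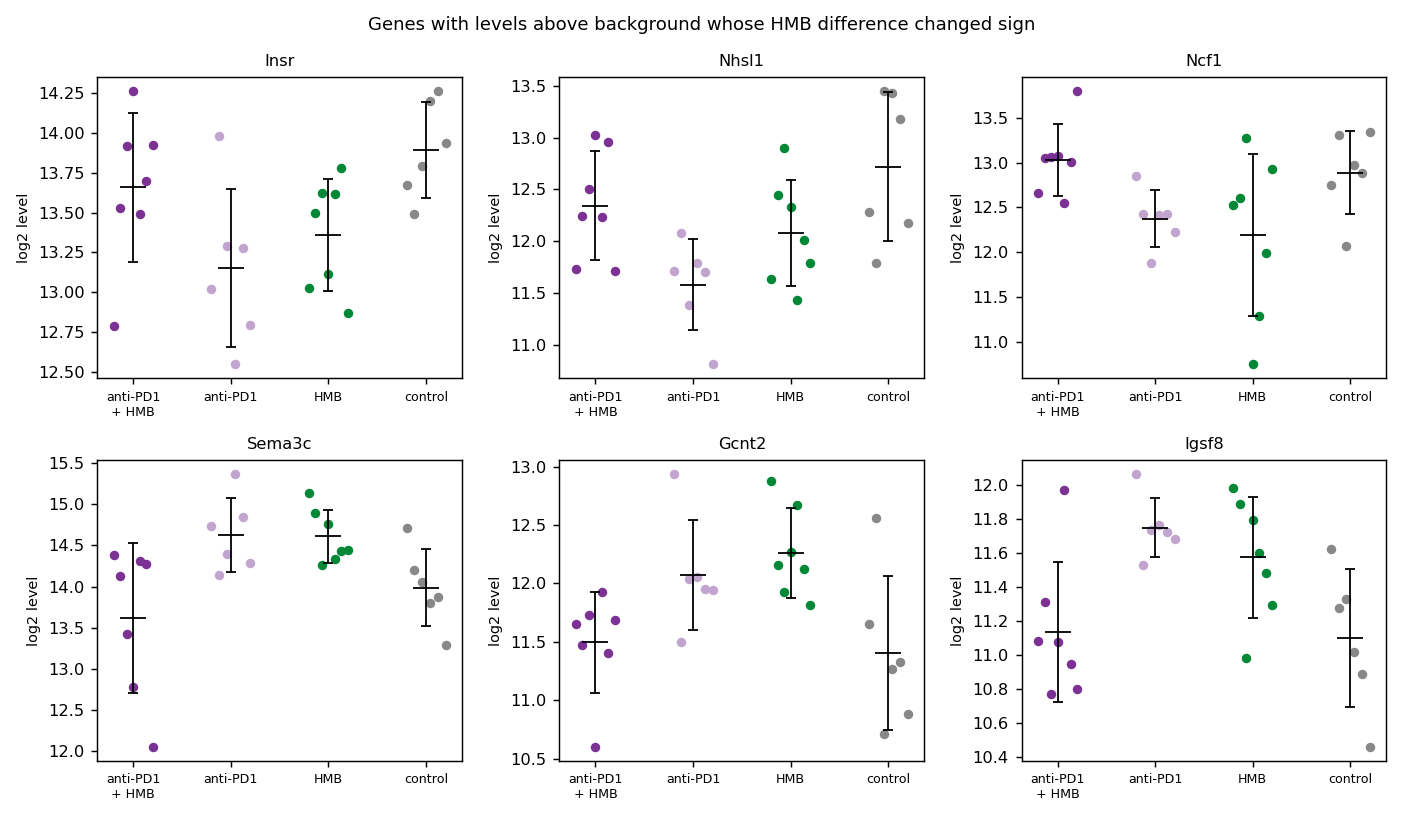
Log2 level per tumor (points) of 6 genes whose mean was above background, with the group mean and SD (bars). In the upper row (Insr, Nhsl1, Ncf1) HMB means lie below control and anti-PD1 + HMB means above anti-PD1, and in the lower row (Sema3c, Gcnt2, Igsf8) the reverse.

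Membership of the turning set depended on the tumors and covariates. Without the 2 tumors highest in B cell genes (anti-PD1 + HMB 7 and HMB 2) 52 genes met the rule, 28 of them among the 44. Without the 3 tumors highest in muscle genes 30 did, 18 of them shared, and with the keratinocyte score as a covariate 35 did, 14 of them shared. These settings were chosen after seeing the data.

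Most immune gene lists lay on the positive side. Without anti-PD1 most of their median HMB differences were negative, but those of B and plasma cell markers (0.46) and M2-like genes (0.16) were positive. Under anti-PD1 these medians ran from -0.12 for interferon-alpha response genes, of which 25 of 32 were lower, to 0.74 for regulatory T cell genes. The interferon-gamma response list (28 measured genes, 18 above background) had a median interaction of 0.95. All 28 members were positive, against 9898 of all 19505 genes, but only Ifngr1, a chain of the interferon-gamma receptor, had an unadjusted p under 0.05 (0.74, SE 0.32), against 2.61% of all genes on the positive side. Without single tumors 0 to 8 members did. The median HMB difference of the list was -0.11 under anti-PD1 (18 of 28 lower) and -1.13 without it (28 of 28 lower). Members of a list share samples and often regulators, so that their common sign is not 28 separate observations.

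Tumors of the same group spread widely. The score of the list ranged from -0.75 to 1.73 (median 0.97) in anti-PD1 + HMB tumors, from -0.15 to 1.86 (median 0.45) in anti-PD1 tumors, from -2.02 to 0.26 (median -1.18) in HMB tumors and from -1.22 to 0.85 (median 0.30) in control tumors. Of 7 HMB tumors 1 was above the control mean, and of 7 anti-PD1 + HMB tumors 4 were above the anti-PD1 mean. Ifng, the cytokine itself, was low on the array. It had medians of 6.47 in anti-PD1 + HMB, 7.02 in anti-PD1, 4.84 in HMB and 6.25 in control tumors, with an interaction of 0.71 (SE 0.72). Cd274, the PD-1 ligand, had medians of 11.38, 11.21, 9.64 and 11.22 in the same order of groups and an interaction of 1.18 (SE 0.83). Gbp2, an interferon-induced GTPase, was at 1.57, the chemokine Cxcl9 at 1.30 and the immunoproteasome subunit Psmb9 at 1.26, while Cxcl10 was at 0.36 and Irf1 at 0.41.

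Promoters of the interferon-gamma list are shown for its GAS and ISRE elements. The same RefSeq windows held 21 of the 28 measured genes. A GAS-like match (TTCNNNGAA, which reads the same on both strands) was in 8 of 21 genes (38.1%), against 9.55% of all genes of the table. An ISRE-like match (GAAANNGAA, or TTCNNTTTC on the other strand) was in 10 of 21 (47.6%), against 9.76%, and 3 genes held both, where matches may overlap. The 3 members with the smallest interaction p that had a match follow, with matches in capitals: GAS-like in Irf8 and Icam1 and ISRE-like in Gbp2. They lie at Irf8 chr8:120736108-120736407 on the plus strand, Icam1 chr9:21015690-21015989 on the plus strand and Gbp2 chr3:142620413-142620712 on the plus strand.
Irf8: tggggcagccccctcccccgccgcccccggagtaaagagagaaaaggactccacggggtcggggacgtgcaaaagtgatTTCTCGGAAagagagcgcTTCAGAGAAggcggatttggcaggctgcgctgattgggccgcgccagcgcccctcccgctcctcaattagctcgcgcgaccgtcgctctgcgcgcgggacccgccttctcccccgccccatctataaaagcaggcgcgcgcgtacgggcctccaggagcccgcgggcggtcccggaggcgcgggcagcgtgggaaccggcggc
Icam1: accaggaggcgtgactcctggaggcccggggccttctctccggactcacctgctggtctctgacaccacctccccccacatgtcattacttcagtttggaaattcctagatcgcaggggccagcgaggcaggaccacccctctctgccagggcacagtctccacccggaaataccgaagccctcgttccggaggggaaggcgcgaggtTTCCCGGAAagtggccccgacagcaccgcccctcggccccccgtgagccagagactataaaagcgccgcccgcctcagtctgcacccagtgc
Gbp2: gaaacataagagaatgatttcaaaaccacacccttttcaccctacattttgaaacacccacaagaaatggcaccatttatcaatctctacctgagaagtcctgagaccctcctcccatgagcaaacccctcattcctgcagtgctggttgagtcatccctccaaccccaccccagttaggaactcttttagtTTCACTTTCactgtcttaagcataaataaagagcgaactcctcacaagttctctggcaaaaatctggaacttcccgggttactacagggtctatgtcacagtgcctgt

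Irf8, a transcription factor of myeloid cells, had an interaction of 1.09 (SE 0.54) and medians of 9.08 in anti-PD1 + HMB, 8.64 in anti-PD1, 8.36 in HMB and 8.78 in control tumors. Icam1, an adhesion ligand for leukocytes, was at 0.96 (SE 0.51). Neither passed an unadjusted p of 0.05.

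Antigen presentation followed the interferon list. MHC class I genes (19 measured, 16 above background) had a median interaction of 0.70, with 16 positive, against 9898 of all 19505 genes. Of the positive members 2 had an unadjusted p under 0.05, against 2.61% of all genes. These were H2-K1, a classical class I heavy chain, and B2m, the invariant light chain. Without single tumors 0 to 9 members were under that p. H2-K1 ranged from 16.20 to 17.55 (median 17.13) in anti-PD1 + HMB tumors, from 16.28 to 17.23 (median 16.83) in anti-PD1 tumors, from 14.83 to 16.37 (median 15.92) in HMB tumors and from 15.50 to 17.04 (median 16.66) in control tumors. All 7 HMB tumors were below the control mean, and the interaction was 0.78 (SE 0.37). B2m was at 0.36 (SE 0.16), with medians of 18.99 in anti-PD1 + HMB, 18.89 in anti-PD1, 18.48 in HMB and 18.92 in control tumors. MHC class II genes (10 measured) had a median of 0.92 and all were positive, though H2-Eb2 was at 0.00. Of them 1 had an unadjusted p under 0.05, against 2.61% of all genes, and 0 to 6 did without single tumors. H2-Aa, a class II chain of antigen-presenting cells, was the one with an unadjusted p under 0.05 at 1.16 (SE 0.53). It ranged from 16.35 to 17.96 in anti-PD1 + HMB tumors, from 16.80 to 18.16 in anti-PD1 tumors, from 14.32 to 17.62 in HMB tumors and from 16.26 to 17.61 in control tumors. MHC genes are close relatives of each other, and probe sets may share signal between them.

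T cell markers (20 measured, 0 above background) had a median interaction of 1.12 with 20 of 20 positive and 0 at an unadjusted p under 0.05. Cd3e, which is part of the T cell receptor complex, had medians of 11.83 in anti-PD1 + HMB, 10.66 in anti-PD1, 8.93 in HMB and 10.28 in control tumors and an interaction of 1.36 (SE 0.93). Cd8a, the coreceptor of cytotoxic T cells, was at 1.33 (SE 1.01). The T cell score of anti-PD1 + HMB tumor 7 was 3.78, the highest of all tumors. The median of the list was 0.63 without it, 1.42 without HMB tumor 2 and 0.92 without both. With the keratinocyte score as a covariate it was 0.63. Cytotoxic effector genes had a median of 0.71 (17 of 18 positive, with Ctsw, a protease of cytotoxic lymphocytes, at 1.46), and the granzyme Gzmb was at 0.58 (SE 0.86).

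Regulatory T cell and checkpoint genes held the larger single values. Ctla4, an inhibitory receptor that is abundant on regulatory T cells, ranged from 7.57 to 10.25 (median 8.66) in anti-PD1 + HMB tumors, from 5.55 to 8.23 (median 6.90) in anti-PD1 tumors, from 4.76 to 7.64 (median 6.97) in HMB tumors and from 5.54 to 8.12 (median 7.14) in control tumors. All 7 anti-PD1 + HMB tumors were above the anti-PD1 mean, and HMB and control tumors overlapped almost completely. The interaction was 2.19 (SE 0.71, adjusted p = 0.862), from an HMB difference of 1.76 (SE 0.50) under anti-PD1 and of -0.43 (SE 0.50) without it. Havcr2, which encodes the inhibitory receptor TIM-3, had medians of 9.66 in anti-PD1 + HMB, 9.27 in anti-PD1, 8.51 in HMB and 9.51 in control tumors and an interaction of 1.35 (SE 0.43). Ccr8, a chemokine receptor of tumor regulatory T cells, was at 1.13 (SE 0.44), Icos at 1.41 (SE 0.77) and Gpr83 at 1.04 (SE 0.49). Of 12 measured regulatory T cell genes 0 had a mean above background, and Foxp3 was on the written list but was not measured. Of the 12, 11 were positive (median 0.61, and 0.38 without anti-PD1 + HMB tumor 7). At an unadjusted p under 0.05 there were 3, against 2.61% of all genes, and all 12 were higher in anti-PD1 + HMB than in anti-PD1 tumors. Of 14 checkpoint genes 12 were positive, with a median of 0.57 that became 0.35 without anti-PD1 tumor 4 and 0.89 without anti-PD1 tumor 6. At an unadjusted p under 0.05 there were 2 positive and 1 negative checkpoint genes, against 2.61% and 2.96% of all genes. Pdcd1, the gene of PD-1, had an interaction of 0.25 (SE 0.83) and Lag3 one of 0.01. Without the 2 tumors highest in B cell genes the interaction of Ctla4 was 2.06 and the median of the regulatory T cell list 0.40. With the scores of muscle, adipocyte and B cell genes in the model the checkpoint median was 0.29 and the cytotoxic median 0.45.

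**Figure D4:**
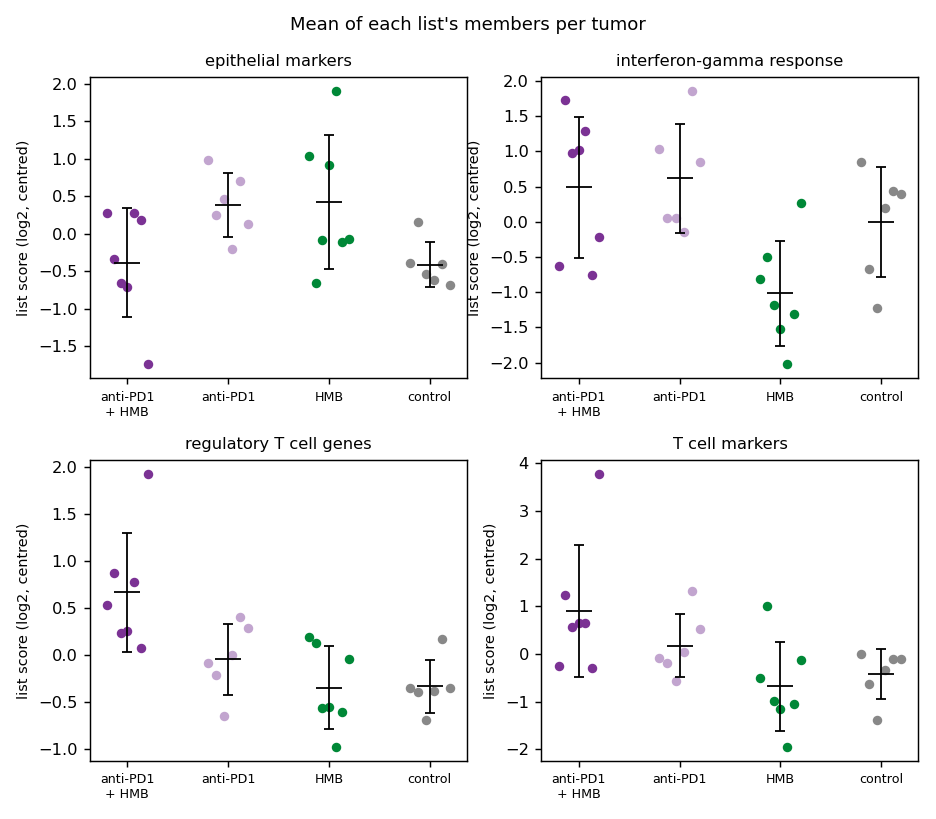
Score of 4 gene lists in each tumor (points; mean of members on the log2 scale, each gene centred over all tumors), with the group mean and SD (bars). Anti-PD1 + HMB tumor 7 is the highest point for T cell markers (3.78) and regulatory T cell genes (1.93), and HMB tumors lie lowest for the interferon-gamma response (median -1.18).

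Macrophage lists were closer to 0. Macrophage markers had a median interaction of 0.21 (13 of 18 above background), and 0.08 without HMB tumor 5. M2-like genes had 0.18 (13 of 17 positive), and 0.07 without anti-PD1 + HMB tumor 1. Of these 17 genes 13 were higher with HMB alone and 16 were higher with HMB under anti-PD1. M1-like genes had 0.41, and 0.02 without anti-PD1 + HMB tumor 7. The series is titled for macrophage polarization, and 3 of its usual markers had interactions smaller than their standard errors. Mrc1, a mannose receptor of M2-like macrophages, was at 0.06 (SE 0.51), Arg1, an arginine-degrading enzyme of such cells, at -0.46 (SE 0.81) and Nos2, the inducible nitric oxide synthase of M1-like macrophages, at -0.12 (SE 0.44). In Cd163, a scavenger receptor of M2-like macrophages, HMB tumors (7.26 to 8.20) did not overlap with control tumors (5.03 to 7.09), whereas anti-PD1 + HMB tumors (5.60 to 8.38) overlapped with anti-PD1 tumors (5.78 to 8.35), and the interaction was -0.98 (SE 0.63). Il1a was at 2.08 (SE 0.86) and Il6 at -1.17 (SE 0.52), both inflammatory cytokines at low levels. Dendritic cell genes had a median of 0.72 (14 of 16 positive), among them Cd86, a costimulatory ligand, at 0.95 (SE 0.44). Without anti-PD1 + HMB tumor 7, which had the highest dendritic cell score (1.69), that median was 0.34. Chemokines and their receptors had a median of 0.50 (26 of 33 positive), neutrophil genes 0.30 and interferon-alpha response genes 0.23 (0.05 to 0.37 without single tumors). B and plasma cell markers had 0.34, which turned to -0.81 without anti-PD1 + HMB tumor 7 and was -0.39 without it and HMB tumor 2.

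Fibroblast, adipocyte and mast cell lists lay on the negative side, and their HMB differences were larger without anti-PD1 than under it. Fibroblast and matrix genes (26 measured, 15 above background) had a median interaction of -0.86, with a median HMB difference of 0.04 under anti-PD1 and of 1.14 without it. Vcan, a matrix proteoglycan, was at -2.05 (SE 0.89), with medians of 9.42 in anti-PD1 + HMB, 9.48 in anti-PD1, 11.31 in HMB and 9.17 in control tumors. Adipocyte markers had a median of -0.99 and mast cell genes one of -0.88, with 0 members of either list at an unadjusted p under 0.05. The adipocyte median was -1.92 without anti-PD1 + HMB tumor 7 and -0.37 without HMB tumor 2, and the mast cell median -0.33 without anti-PD1 tumor 6. With the scores of muscle, adipocyte and B cell genes in the model the fibroblast median was -0.28. The adipocyte median was 0.01 in that model, but its own score is a covariate there, which holds it near 0 by construction. Without the 2 tumors highest in B cell genes the mast cell median was -0.27. Endothelial genes were at 0.50 (16 of 19 positive), with Plvap, a protein of endothelial diaphragms, at 1.22 (SE 0.54), and as a list at 0.10 without anti-PD1 + HMB tumor 7. Group means of skeletal muscle genes were higher with HMB in both arms (medians of 1.61 under anti-PD1 and 1.47 without it), with wide spread between tumors. Their score had medians of 0.18 in anti-PD1 + HMB (highest 4.71), -1.04 in anti-PD1, -0.72 in HMB (highest 5.24) and -1.03 in control tumors. Of 7 anti-PD1 + HMB tumors 4 were above the anti-PD1 mean, and 6 of 7 HMB tumors were above the control mean. The median interaction of the list was 0.12. Its sign was not stable, with -0.52 without anti-PD1 + HMB tumor 4, 0.94 without HMB tumor 5 and -0.17 without the 3 tumors highest in muscle genes.

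Immediate early genes, which respond to growth factors and also to tissue handling, had a median interaction of -0.34. Of 20 members 8 had an unadjusted p under 0.05, against 2.96% of all genes on the negative side, and without single tumors 5 to 9 did. All 8 were negative: Ier2, Nr4a2, Junb, Egr1, Jund, Ier3, Fos and Nr4a1. Junb, an AP-1 subunit above background, ranged from 10.71 to 12.00 (median 11.81) in anti-PD1 + HMB tumors, from 11.53 to 12.68 (median 11.94) in anti-PD1 tumors, from 10.99 to 12.77 (median 12.17) in HMB tumors and from 10.47 to 12.29 (median 11.25) in control tumors. Its interaction was -1.14 (SE 0.42). The medians with either treatment alone were the highest, but that of anti-PD1 + HMB tumors was close to that of anti-PD1 tumors. Jun itself was at 0.03 and Myc at -0.17. Without the 3 tumors highest in muscle genes 4 of the 20 had an unadjusted p under 0.05. Heat shock genes, which also mark handling, were at 0.05.

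Most metabolic lists lay near the median of all genes. Leucine catabolism, the pathway that HMB belongs to, had a median interaction of -0.03 over 16 genes, with Bcat2, the mitochondrial branched-chain aminotransferase, at -0.61 (SE 0.28). Cell cycle genes were at -0.01, ribosomal proteins at 0.01, erythroid genes at -0.03, pancreatic acinar genes at -0.01 and the TNF NF-kappaB theme at 0.10. The TNF NF-kappaB median hides members of both signs. Of 29 measured, 3 positive and 5 negative ones had an unadjusted p under 0.05, against 2.61% and 2.96% of all genes. Without single tumors these counts were 0 to 4 and 2 to 5. When each array was centred on its median, the medians for leucine catabolism, cell cycle, erythroid and acinar genes became positive (0.08, 0.09, 0.08 and 0.10), and with quantile normalization that of ribosomal proteins became negative (-0.00126). Genes of mTORC1 and leucine sensing had 0.23 (21 of 26 positive), fatty acid oxidation -0.11, oxidative phosphorylation 0.02, and glycolysis and hypoxia 0.02. Of 36 gene lists 10, most of them near 0, changed sign without single tumors. HMB carbon can enter cholesterol synthesis, whose 18 genes had a median of 0.33 with 17 positive, and 0.53 without anti-PD1 + HMB tumor 7. Insig1, a sterol-regulated brake on that pathway, ranged from 11.97 to 13.01 (median 12.70) in anti-PD1 + HMB tumors, from 11.65 to 12.91 (median 12.31) in anti-PD1 tumors, from 10.80 to 12.36 (median 11.90) in HMB tumors and from 11.73 to 13.23 (median 12.29) in control tumors. All 7 HMB tumors were below the control mean, and the interaction was 0.97 (SE 0.40).

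**Figure D5:**
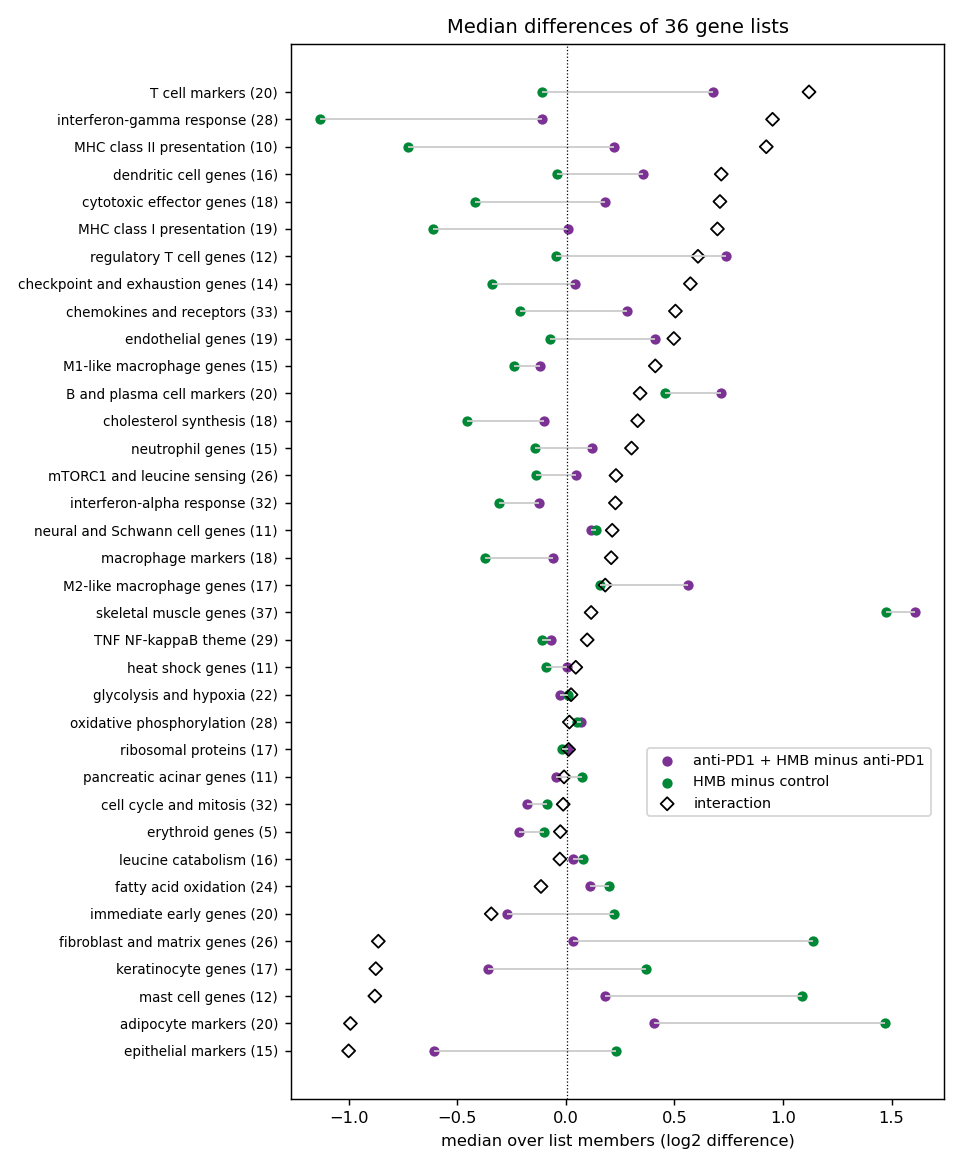
For 36 gene lists (measured members in parentheses), the median over members of the HMB effect under anti-PD1 (purple), of the HMB effect without it (green) and of the interaction (open diamonds), as log2 differences. The dotted line is the median interaction of all genes (0.01). T cell markers (1.12) are at the top and epithelial markers (-1.0) at the bottom.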

How the data were processed

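RNA of 26 Panc02 tumors was measured on Clariom S arrays, 1 array per tumor. The authors deposited 1 processed log2 value per probe set and tumor, and the sources used here state neither the log base nor the normalization. The base was taken as 2. Of 28846 probe sets 19572 had 1 gene symbol, and the brightest was kept for 55 genes with several, which left 19505 genes. No further normalization or filter was applied. In R 4.3.3, limma 3.58.1 was fitted with 1 mean per group over all tumors, the interaction was a contrast of the 4 means, and p-values were adjusted over all genes by Benjamini-Hochberg at 0.05. P-values measure the spread between these tumors. The steps were checked on simulated data.

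Of 731 genes written into 36 lists, 663 were measured. Members and lists were chosen with earlier results of these data known, so counts of members at an unadjusted p are not independent of those results. Named genes were the 10 smallest p in each direction, the 8 smallest in each direction above background, the 6 leading turning genes in each direction, the 3 leading members of lists described and genes of the study's theme. Which lists have members named, the E-box search and genes outside this rule were chosen after values were seen. Alternatives were other scalings, variance models, array weights, a background filter, probe set means, the replicate number as a block, tissue scores as covariates and fits without single tumors.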

Additional observations from a re-analysis of the deposited data

Results flagged for a closer look

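Of 588 groups of values looked at (4 groups for each named gene and list score), 46 held a tumor far from the others of its group, by Dixon's test at 95%. Chance flags about 1 in 20 groups. Anti-PD1 + HMB tumor 7 stood apart for the log2 levels of Cd5 (9.8), Cd86 (11.96), Cidea (7.73), Ebf1 (15.59), Gpr83 (5.77), Icos (12.08), Il6 (2.58), Ncf1 (13.8), Skap1 (7.88) and Tnfrsf13b (10.63) and for the scores of T cell markers (3.78), regulatory T cell genes (1.93), B and plasma cell markers (6.68), macrophage markers (-0.62), dendritic cell genes (1.69), endothelial genes (1.96), cell cycle and mitosis (-1.48) and pancreatic acinar genes (0.5). HMB tumor 5 did so for the log2 levels of H2-K1 (14.83), Tnnc2 (10.27), Tnnt1 (9.61) and Tpm2 (15.03) and for the scores of heat shock genes (1.01), skeletal muscle genes (5.24) and ribosomal proteins (0.17). Control tumor 4 was distant for the log2 levels of EU599041 (5.43), Flt1 (10.93) and Nr4a2 (10.2) and for the scores of immediate early genes (0.32) and fibroblast and matrix genes (-2.45). Control tumor 3 stood apart for the log2 levels of Cd3e (7.52), Icos (6.12) and Slc4a3 (6.42). Anti-PD1 tumor 6 did so for the log2 level of Tnnc2 (4.68) and for the scores of skeletal muscle genes (0.76) and keratinocyte genes (1.83). Control tumor 5 was distant for the log2 levels of BC051019 (4.82) and Bcat2 (8.26). Anti-PD1 tumor 5 stood apart for the log2 levels of Ctsw (9.02) and Ier3 (10.12). Anti-PD1 + HMB tumor 4 did so for the log2 levels of Gcnt2 (10.6) and Tnnt1 (9.54). Anti-PD1 + HMB tumor 5 was distant for the log2 level of EU599041 (7.45). Anti-PD1 tumor 4 stood apart for the score of B and plasma cell markers (1.09). Control tumor 2 did so for the score of epithelial markers (0.15). Control tumor 6 was distant for the score of cholesterol synthesis (0.88).

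In 8 of 111 named genes every tumor of both HMB-fed groups lay on opposite sides. That is, all anti-PD1 + HMB tumors lay on one side of the anti-PD1 mean and all HMB tumors on the other side of the control mean. The same count was not made over all genes, so whether 8 is unusual was not tested. The interactions of these genes were -4.69 for Esrp1, -1.66 for EU599041, -1.44 for Gcnt2, -4.64 for Krt19, 1.01 for Rpe65, -1.63 for Sema3c, -1.39 for Sh3yl1 and -3.02 for Sult2b1. The difference between the arms did not pass adjustment in limma for any of them, and the genes had been named partly for a small interaction p.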

How the results depend on the processing

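No gene passed in the interaction under any alternative that kept all tumors. Without HMB replicate 3 the count was 1 (Cblc at -2.37, adjusted p = 0.0352 in limma), and over the fits without single tumors it ranged from 0 to 1. For HMB against control the count was 1 without anti-PD1 replicate 6 and otherwise 0 (range 0 to 1). For anti-PD1 + HMB against anti-PD1 it was 0 throughout. In 27 of 36 gene lists the median moved by over 1.5 times or changed sign without some single tumor. Against the SD of the list's score between tumors of 1 group, 1065 of 1066 alternative list medians moved by less, the exception being leucine catabolism at 0.14 with only the 5 members above background. Of 4364 alternative values of named genes 4350 kept sign and side of the threshold. Mrc1 reversed to -0.0906 with the keratinocyte covariate and to -0.24 without the 3 tumors highest in muscle genes, and ranged from -0.16 to 0.22 without single tumors. Pdcd1 reversed to -0.28 with muscle, adipocyte and B cell covariates and ranged from -0.0786 to 0.65, and Nos2 ranged from -0.27 to 0.10. The cause of these changes was not tested. The covariates of keratinocyte genes and the fits without groups of tumors were chosen after seeing the data.

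With the replicate number as a block, 0 genes passed the interaction (smallest adjusted p = 0.259), and 535 positive and 622 negative genes had an unadjusted p under 0.05. Tumors with the same number did not deviate together on average (mean correlation 0.01 over 37 pairs of different groups). Of these pairs 12 had a correlation over 0.1, against 53 of 216 pairs with different numbers. A mean cannot show whether some numbers pair tumors, and the labels do not state a pairing. Most turning genes and T cell genes lie below the negative-control level, where differences are least certain.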
